A study of Homo sapiens with 2 samples.

Results

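Natural antisense RNAs were compared between TFK1 cells in which MBD2 was knocked down (shMBD2) and TFK1 cells with a negative control (shNC), together with the genes they are named after. TFK1 is an established human cholangiocarcinoma cell line. The shRNAs were delivered by lentivirus with drug selection per the study's methods, and the labels do not say which MBD2 shRNA the sequenced cells carried. No other treatment is named in the sample titles or in the study's description of the RNA sequencing. Members were selected on their summed read counts: genes whose symbol ends in -AS and 1 digit, with 50 or more counts over both libraries. Of 876 such symbols among 56638 genes, 331 had 0 counts in both libraries, 250 had 1 to 9, 151 had 10 to 49, and 144 were members. Because the count minimum was read from these libraries, the membership itself is a description.

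An antisense RNA is transcribed from the strand opposite to another gene, often from the same stretch of promoter DNA in the other direction or across the end of its partner. Some such RNAs alter the transcription, splicing or translation of the partner, some act elsewhere, and many have no known role. Many of these pairs start within CpG islands, the CG-rich promoter sequences whose methylation silences transcription. MBD2 binds methylated CG dinucleotides and brings the NuRD complex, which removes histone acetylation. DNA methylation and MBD2 binding were not measured in these libraries.

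Each condition had 1 library, so the differences below carry no p-value and could not be checked against a second library. The libraries held 14728814 counts in shMBD2 and 14467406 in shNC. Log2FC is shMBD2 over shNC after TMM scaling with a prior of 0.5 counts, and a range in parentheses after it is its 95% exact Clopper-Pearson interval computed from how its reads divided between the libraries. These intervals cover counting error only, and PCR reads without molecular identifiers are not independent molecules. MBD2, the targeted gene, had 365 counts in shMBD2 and 1013 in shNC, a log2FC of -1.48 (-1.66 to -1.31). The biliary marker KRT7 had 11632 and 12975 counts, SOX9 264 and 435, EPCAM 111 and 162, and KRT19 119 and 70, while each of the 11 leukocyte, fibroblast and hepatocyte markers had 6 counts or fewer in either library.

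DNA before the start is shown for 5 antisense RNAs, chosen with their values known. EPB41L4A-AS2, PRKG1-AS1 and ZNF503-AS2 are those whose sense gene had a log2FC past 1 or -1 in the same direction, and UBA6-AS1 and SRP14-AS1 are divergent RNAs whose neighbor changed little. Each stretch lies within the 250 bases before the RefSeq start of the antisense RNA on GRCh38.p14, is written 5′ to 3′ on the antisense RNA's strand, and leaves out bases that GENCODE 29 annotates as untranslated. Capitals mark every CG, the dinucleotide that MBD2 binds when it is methylated. CG reads the same on both strands.
EPB41L4A-AS2: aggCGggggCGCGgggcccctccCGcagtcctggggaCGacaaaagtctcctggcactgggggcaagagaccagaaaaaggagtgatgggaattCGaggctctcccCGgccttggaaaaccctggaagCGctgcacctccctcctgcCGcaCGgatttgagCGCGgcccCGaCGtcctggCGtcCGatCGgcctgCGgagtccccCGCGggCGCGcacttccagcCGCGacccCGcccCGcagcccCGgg
PRKG1-AS1: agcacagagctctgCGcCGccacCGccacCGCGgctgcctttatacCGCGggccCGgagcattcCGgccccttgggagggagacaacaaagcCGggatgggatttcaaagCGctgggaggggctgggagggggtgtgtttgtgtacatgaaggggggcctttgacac
SRP14-AS1: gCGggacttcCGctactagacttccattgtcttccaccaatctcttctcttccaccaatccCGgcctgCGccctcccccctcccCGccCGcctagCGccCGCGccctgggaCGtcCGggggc
UBA6-AS1: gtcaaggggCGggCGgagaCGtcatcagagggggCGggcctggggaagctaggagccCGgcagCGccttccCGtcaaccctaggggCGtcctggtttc
ZNF503-AS2: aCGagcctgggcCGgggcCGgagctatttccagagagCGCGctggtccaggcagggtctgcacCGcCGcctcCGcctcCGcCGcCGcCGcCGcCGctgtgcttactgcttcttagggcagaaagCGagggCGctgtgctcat
The EPB41L4A-AS2 stretch (chr5:112419333-112419582, plus strand) held 27 CG in 250 bases. The PRKG1-AS1 stretch (chr10:52314129-52314295, minus strand) held 11 in 167, up to the base before the start of DKK1 on the other strand, and a longer PRKG1-AS1 transcript of GENCODE 29 has an exon there. The SRP14-AS1 stretch (chr15:40039189-40039310, plus strand) held 11 in 122, and the UBA6-AS1 stretch (chr4:67701180-67701277, plus strand) held 8 in 98. No exon is annotated in these 2 stretches or in that of EPB41L4A-AS2. The ZNF503-AS2 stretch (chr10:75401278-75401419, plus strand) held 16 in 142, and it lies within the coding part of an exon of ZNF503, which is read from the other strand. It ends short of the RefSeq start at 75401528, because the bases between were left out.

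Most of the 144 antisense RNAs were weakly expressed. Their summed counts ran from 50 to 5991 with a median of 116.5, and 62 had under 100. The median level was 4.90 TPM (a level scaled per length and library) in shMBD2 and 5.73 in shNC, and 104 of the 144 were under 10 TPM in both libraries. The counting interval of a member was accordingly wide, 1.13 on the log2 scale at the median against 0.41 over all genes with 50 or more counts. Just inside the count minimum were USP2-AS1 with 20 counts in shMBD2 and 30 in shNC and PCED1B-AS1 with 25 and 26. Just outside, with 49 counts each, were ASH1L-AS1, PPP1R26-AS1 and FLVCR1-AS1.

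More antisense RNAs were lower than higher after MBD2 knockdown, by small amounts. Of the 144, 91 (63.2%) had a log2FC below 0 and 53 above, whereas 6675 of all 13353 genes with 50 or more counts were below 0. The median log2FC of the members was -0.11, with quartiles of -0.40 and 0.13, and the median of all those genes was 0.00012. The counting interval lay wholly below 0 for 31 members (21.5%), against 21.8% of all those genes, and wholly above 0 for 11 (7.64%), against 23.2%. All those genes together had more counts and narrower intervals than the members. At 50 to 99 counts the interval lay below 0 for 13 of 62 members and 183 of 1381 genes. It did for 12 of 66 and 644 of 3633 at 100 or more and under 500 counts. At 500 or more counts it did for 6 of 16 and 2078 of 8339. It lay above 0 for 3, 6 and 2 members and 185, 618 and 2298 genes, in the same order. A log2FC above 1 was reached by 2 members, UBA6-AS1 and ZNF503-AS2, where the background among all genes with 50 or more counts was 2.32%. A log2FC below -1 was reached by 5 members, EPB41L4A-AS2, PRKG1-AS1, A2M-AS1, STARD7-AS1 and TRAF3IP2-AS1, where the background was 1.54%. Together 4.86% of the members and 3.86% of all those genes were past either line. At matched counts the shares past a line were 6.45% of members against 12.7% at 50 to 99 counts and 4.55% against 5.84% at 100 or more and under 500. In bulk RNA a change in the share of cells that express a gene and a change in RNA per cell cannot be told apart.

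**Figure D1:**
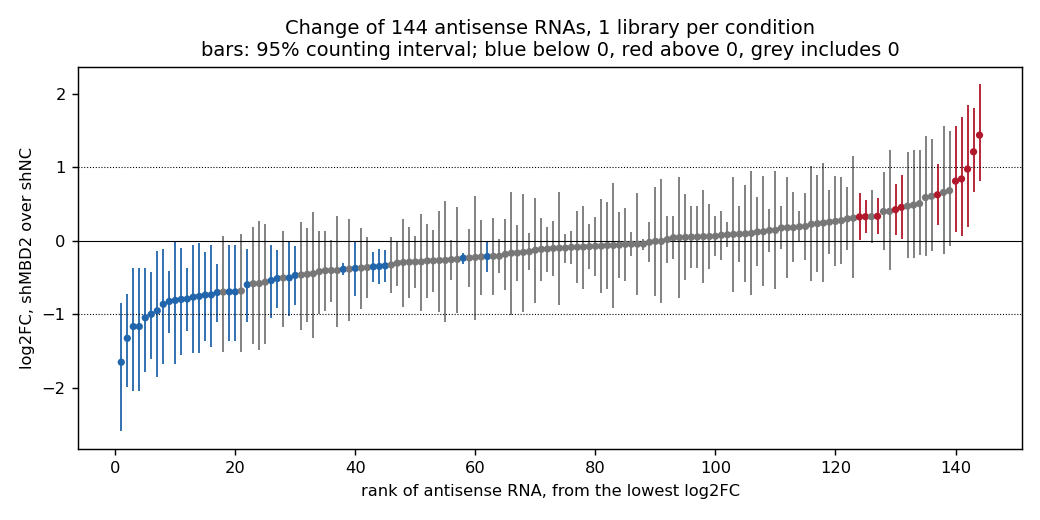
Log2FC of each of the 144 antisense RNAs (vertical axis, shMBD2 over shNC) by rank (horizontal axis), each with its 95% counting interval and 1 library per condition. The 31 blue members (21.5%, against 21.8% of all genes with 50 or more counts) have intervals below 0 and the 11 red ones (7.64%, against 23.2%) above 0, and 2 members lie above 1 and 5 below -1. These shares are not at matched counts.

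The lean toward lower values was present at each level of expression. Among the 62 members with 50 to 99 counts 61.3% were lower, against 53.2% of all genes with that many counts, and among the 66 with 100 or more and under 500 counts 62.1% were lower, against 52.7%. Among the 16 members with 500 or more counts 12 were lower, against 48.3% of all such genes, and none of the 16 passed 1 or -1. Other long noncoding RNAs leaned the same way. The 73 genes with a LINC symbol and 50 or more counts had a median log2FC of -0.12, and 65.8% of them were lower, so these values do not set the antisense RNAs apart from LINC RNAs. The sense genes were nearly evenly divided. The 131 sense genes with 10 or more counts had a median log2FC of -0.0060, with 67 lower and 64 higher.

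The antisense RNA with the largest increase, UBA6-AS1, had 77 counts in shMBD2 and 28 in shNC. Its log2FC was 1.43 (0.81 to 2.13). UBA6, which encodes a ubiquitin-activating enzyme, had 1163 and 1184 counts and a log2FC of -0.03 (-0.15 to 0.08). Both are transcribed away from each other from starts 101 bases apart, and the genes share no base, so the antisense RNA was higher while its divergent partner stayed within counting error. The difference of the log2FC, antisense minus sense, was 1.48 (0.83 to 2.18), by an exact interval that needs no library scaling.

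ZNF503-AS2 was higher together with its sense gene. It had 89 counts in shMBD2 and 38 in shNC, a log2FC of 1.21 (0.66 to 1.81). ZNF503, a zinc finger transcriptional repressor, had 753 and 320 counts and a log2FC of 1.22 (1.04 to 1.42). It was the only sense gene of the 131 above 1. The background was 5.48% of genes with 10 or more counts and 2.32% of those with 50 or more, neither at matched counts. The difference within the pair was -0.01 (-0.61 to 0.61). The genes start head to head and overlap by 906 bases, of which 388 are exonic on both strands in GENCODE 29. The strand setting of the counting is not given in the sources used here, so reads of the shared bases could have been counted for either gene, and how far this carried the antisense value was not tested.

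The other members at the upper end changed less. VPS9D1-AS1 had 129 and 83 counts in shMBD2 and shNC, a log2FC of 0.62 (0.22 to 1.04), while VPS9D1 had 100 and 99. KTN1-AS1, opposite the gene of the kinesin-binding protein kinectin, had 109 and 79 counts and a log2FC of 0.45 (0.02 to 0.89), and KTN1 had a log2FC of 0.03. PSMG3-AS1, opposite a proteasome assembly chaperone gene, had 170 and 126 counts and a log2FC of 0.42 (0.08 to 0.77). The difference within the pair, antisense minus sense, was 0.62 (0.03 to 1.21) for VPS9D1, 0.42 (-0.01 to 0.86) for KTN1 and 0.26 (-0.15 to 0.67) for PSMG3, so only the first exceeded counting error. RNASEH1-AS1, which overlaps the gene of a nuclease that cleaves RNA in RNA-DNA hybrids by 125 bases, had 318 and 251 counts, a log2FC of 0.33 (0.09 to 0.58), against -0.04 for RNASEH1. BAIAP2-AS1 had 366 and 290 counts, a log2FC of 0.33 (0.10 to 0.55). BAIAP2, an adaptor that links membranes to actin, was also higher, at 0.48 (0.26 to 0.71), from a start 447 bases away. PAXIP1-AS2 (0.40), NOP14-AS1 (0.33) and NCBP2-AS2 (0.32) completed the 10 highest among the 90 members that reached 50 counts in either library, the first 2 with intervals that include 0. Weaker members such as ZMIZ1-AS1 (40 and 20 counts, 0.97) had a larger log2FC but fell outside that ranking.

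EPB41L4A-AS2 was the lowest member. It had 16 counts in shMBD2 and 51 in shNC, 0.318 of the shNC level after scaling, and its log2FC was -1.65 (-2.59 to -0.85). EPB41L4A, which encodes a band 4.1-like protein of the FERM family, had 164 and 371 counts and a log2FC of -1.18 (-1.46 to -0.92). The genes do not overlap in the deposited coordinates, and their starts lie 267 bases apart in opposite directions. RefSeq now lists EPB41L4A-AS2 as EPB41L4A-DT, a divergent transcript. EPB41L4A-AS1, a second member that lies wholly inside EPB41L4A, far from its start, had 178 and 187 counts and a log2FC of -0.08 (-0.38 to 0.22). Its difference from EPB41L4A was 1.11 (0.70 to 1.52), so the RNA beside the promoter went with EPB41L4A and the RNA inside the gene did not, although 1659 exonic bases of the latter lie opposite exons of the sense gene in GENCODE 29.

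PRKG1-AS1 had 31 counts in shMBD2 and 78 in shNC, a log2FC of -1.33 (-1.99 to -0.72). PRKG1, a cyclic GMP-dependent protein kinase gene, was barely expressed, with 7 and 16 counts, and its log2FC of -1.15 (-2.72 to 0.16) had an interval that includes 0. The start of PRKG1-AS1 is 1322943 bases from that of PRKG1 but only 168 bases from that of DKK1, which runs the other way. DKK1, a secreted inhibitor of Wnt signaling, had 3207 and 7326 counts, or 313 and 734 TPM, and a log2FC of -1.20 (-1.26 to -1.14). This value lies within the interval of PRKG1-AS1, and DKK1 was singled out after its values were seen.

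TRAF3IP2-AS1 went against its sense gene. It had 27 counts in shMBD2 and 56 in shNC, a log2FC of -1.05 (-1.78 to -0.37), while TRAF3IP2, an adaptor of interleukin receptor signaling to NF-kB, had 229 and 169 counts and a log2FC of 0.43 (0.14 to 0.72). The difference within the pair was -1.49 (-2.27 to -0.73). The genes overlap tail to tail, but their exons do not overlap in GENCODE 29. TRAF3IP2-AS1 starts head to head with REV3L, with 205 shared bases. REV3L, the catalytic subunit of DNA polymerase zeta, had 738 and 701 counts. FBXL19-AS1 also went against its partner. It had 73 and 126 counts, a log2FC of -0.79 (-1.23 to -0.37), while FBXL19, an F-box protein that binds unmethylated CpG islands, had 618 and 402 counts and 0.61 (0.43 to 0.80). Their difference was -1.41 (-1.88 to -0.94), with 98 exonic bases shared between the strands.

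SRP14-AS1 had 38 counts in shMBD2 and 76 in shNC and a log2FC of -0.999 (-1.61 to -0.43), on the line at -1. It was past that line with total counts (-1.02), upper quartile factors (-1.005) and log2 of TPM plus 0.1 (-1.01), each of which gave 6 members below -1. SRP14, a subunit of the signal recognition particle, had 2300 and 2099 counts and 0.12 (0.04 to 0.21) from a start 123 bases away. TMCC1-AS1 had 77 and 136 counts, a log2FC of -0.83 (-1.25 to -0.42), and TMCC1, an endoplasmic reticulum membrane protein gene, 709 and 781. Both are divergent pairs without overlap in which the antisense RNA was lower than its partner beyond counting error, by -1.13 (-1.74 to -0.54) and -0.68 (-1.13 to -0.24). GMDS-AS1 (39 and 65 counts, log2FC -0.74), HOXB-AS3 (90 and 146, -0.70) and MID1IP1-AS1 (34 and 55, -0.69) were also among the 10 lowest of the 90 members that reached 50 counts in either library. A2M-AS1 and STARD7-AS1, with 19 and 43 counts each, fell short of the 50 counts set for that ranking. STARD7, a lipid transfer protein gene, had 2571 and 2366 counts, and A2M, a plasma protease inhibitor gene, had 2 and 0.

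In 134 pairs the sense gene had 10 or more counts. Both genes were higher in 34 pairs and both lower in 51, while 18 pairs had the antisense RNA higher and the sense gene lower and 31 the reverse. The same sign thus occurred in 85 pairs, or 63.4% (exact binomial interval 54.7% to 71.6%, for counting of pairs only). Across the 134 pairs, which share both libraries, Pearson's r of the log2FC was 0.26 and Spearman's rho 0.20, and r was 0.099 without EPB41L4A-AS2, PRKG1-AS1 and ZNF503-AS2. Those 3 were the pairs with both genes past 1 or -1 in the same direction. Of the 131 sense genes, 4 were below -1 (EPB41L4A, PRKG1, DLGAP1 and SNAI3). The background was 5.07% of genes with 10 or more counts and 1.54% of those with 50 or more. The sense gene had 50 or more counts in 122 of the 134 pairs, against 13353 of all 17545 genes. These shares are therefore not at matched counts. DLGAP1 had 3 and 11 counts and SNAI3 had 4 and 12, with intervals that include 0.

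**Figure D2:**
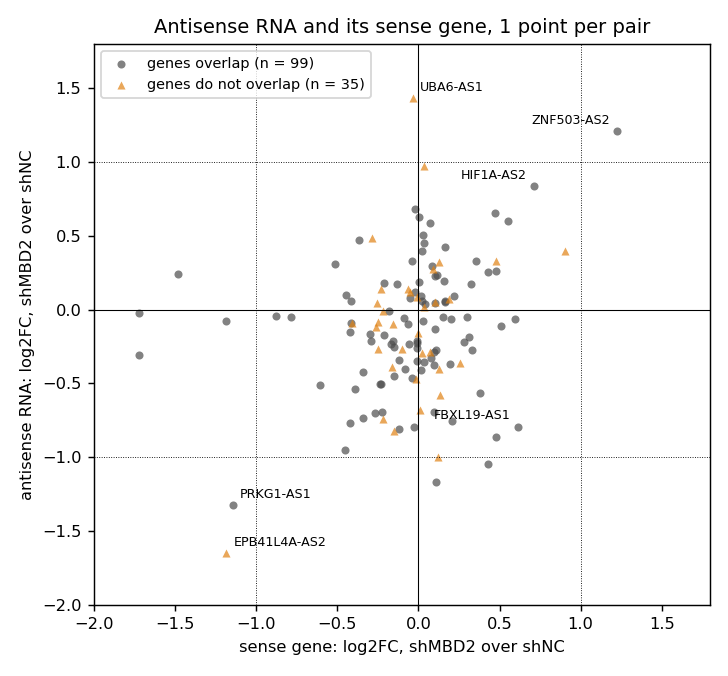
Log2FC (shMBD2 over shNC) of the sense gene (horizontal axis) and of its antisense RNA (vertical axis) for 134 pairs, circles where the 2 genes overlap (n = 99) and triangles where they do not (n = 35), with dotted lines at 1 and -1. Most pairs lie near the center, EPB41L4A-AS2 and PRKG1-AS1 lie low and ZNF503-AS2 high on both axes, and UBA6-AS1 is high with UBA6 near 0.

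The share of pairs with the same sign was 64.6% in the 99 pairs whose genes overlap and 60.0% in the 35 that do not. It was 65.1% in the 83 pairs with exons that overlap in GENCODE 29 and 60.4% in the 48 without. The last share had an exact interval of 45.3% to 74.2%, for counting of pairs only. All pairs share the same libraries and 3 sense genes occur in more than 1 pair, and a difference by overlap was not tested. By arrangement, 36 of the 144 members diverge from their sense gene without overlap, 50 overlap it head to head and 30 tail to tail, 15 lie inside it, and 7 contain it. HNRNPU-AS1 lies on the same strand as HNRNPU and is listed by RefSeq under that gene. In the 67 divergent or head to head pairs with starts within 1000 bases of each other, 62.7% had the same sign. RefSeq now names 25 members as divergent transcripts (-DT). Their median log2FC was -0.07, and 14 of them were lower.

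The symbol does not always name the gene nearest to the start. A gene of another symbol with 10 or more counts started within 1000 bases on the opposite strand for 20 members. The signs of the log2FC were the same in 10 of these 20. The 10 include JHDM1D-AS1 with KDM7A (-0.07 and -0.05), which is the sense gene under its current name. Such a neighbor is not always nearer than the sense gene. That of NDUFA6-AS1 started 903 bases away and NDUFA6 only 24. Among the 20, PRKG1-AS1 with DKK1 was the 1 case with both below -1. LSS, lanosterol synthase of the cholesterol pathway, had 351 counts in shMBD2 and 527 in shNC (log2FC -0.59) from a start 393 bases from that of MCM3AP-AS1, which had 104 and 84 (0.30). MVD, another enzyme of that pathway, had 219 and 294 counts (-0.43), 137 bases from the start of SNAI3-AS1, which had 31 and 26 (0.24). These neighbors were named after their values were seen.

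Within a pair, the log2FC of the antisense RNA and the sense gene differed by a median of 0.30. The difference was past 1 in either direction in 10 pairs. Its exact interval lay below 0, with the antisense RNA lower relative to its sense gene, in 18 pairs and above 0 in 11. In the 122 pairs whose sense gene had 50 or more counts, 7 differences were past 1, and the 18 and 11 were unchanged. No set of unpaired genes was compared, so whether these numbers are unusual was not tested. Beside the pairs already given, ZSCAN16-AS1 had 23 counts in shMBD2 and 42 in shNC, a difference from ZSCAN16 of -1.35 (-2.34 to -0.40). PSMD5-AS1 had 365 and 464 counts and a log2FC of -0.35 (-0.56 to -0.15), whereas PSMD5, a proteasome assembly gene, had 0.03. ZMIZ1-AS1 had 40 and 20 counts and a log2FC of 0.97 (0.18 to 1.84), whereas ZMIZ1 had 0.04. Both genes were higher in the HIF1A pair, named after the values were seen. HIF1A-AS2 had 40 and 22 counts, a log2FC of 0.84 (0.07 to 1.67). HIF1A, the hypoxia-inducible transcription factor subunit, had 15109 and 9147 counts, a log2FC of 0.72 (0.68 to 0.75).

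Levels per length set the antisense RNAs below their sense genes in most pairs. The median antisense level in shNC was 28.8% of that of the sense gene in TPM, and the antisense RNA was above its sense gene in 26 of 134 pairs in shNC and in 28 in shMBD2. The highest member, FAM211A-AS1, had 2957 counts in shMBD2 and 3034 in shNC (311 and 328 TPM) and a log2FC of -0.05 (-0.12 to 0.03). RefSeq lists it as SNHG29, a host gene of small nucleolar RNAs. FAM211A itself had 37 and 68 counts (2.05 and 3.86 TPM), a log2FC of -0.88 (-1.51 to -0.29). FGD5-AS1 had 2232 and 2904 counts (103 and 137 TPM) and a log2FC of -0.39 (-0.47 to -0.31), although FGD5, an exchange factor gene of endothelial cells, had 0 and 3 counts. OIP5-AS1, known as cyrano, had 2747 and 3215 counts (54.4 and 65.3 TPM) and a log2FC of -0.24 (-0.31 to -0.16), against 141 and 146 counts for OIP5, a gene of centromere assembly. FGD5-AS1 and OIP5-AS1 were therefore lower by small amounts that exceed counting error. RNASEH1-AS1 (46.1 and 37.3 TPM) and CEBPZ-AS1 (34.9 and 36.8 TPM) were next, and the latter is listed by RefSeq as CEBPZOS and by GENCODE 29 as protein-coding.

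**Figure D3:**
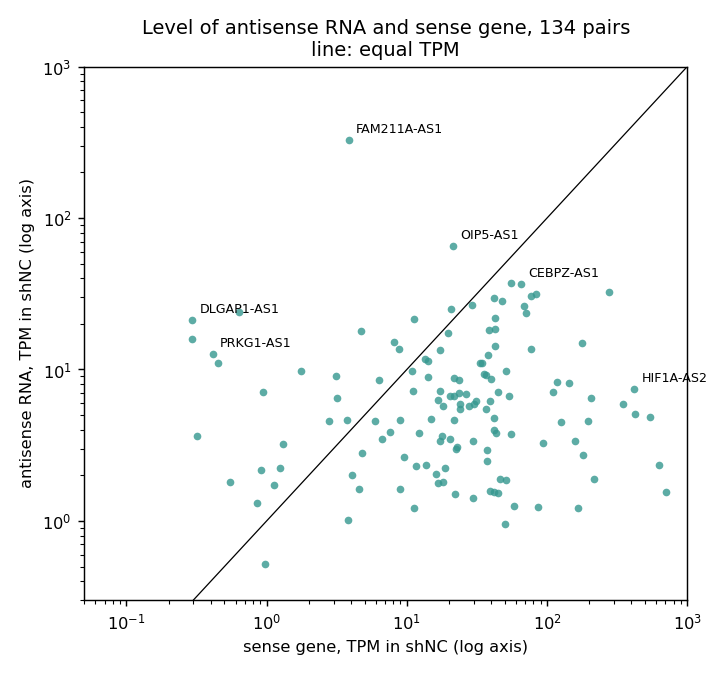
TPM in shNC of the sense gene (horizontal log axis) and the antisense RNA (vertical log axis) for 134 pairs, with a line at equal TPM and 1 library. The 26 pairs above the line include FAM211A-AS1, OIP5-AS1, PRKG1-AS1 and DLGAP1-AS1, whose sense genes are lower, while HIF1A-AS2 lies far below HIF1A.

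The other 5 members had no sense gene of their symbol, 4 of them in HOX clusters, which encode transcription factors of body patterning. HOXB-AS3 had 90 counts in shMBD2 and 146 in shNC, a log2FC of -0.70 (-1.10 to -0.32), and lies opposite HOXB3 (206 and 411 counts, -1.004), HOXB4 (9 and 19), HOXB5 (69 and 112, -0.70) and HOXB6 (183 and 235, -0.37). All 4 of these genes had fewer counts in shMBD2, as HOXB-AS3 did, and reads of shared bases could not be told apart. HOXB-AS4 had 24 and 36 counts (-0.58, -1.40 to 0.19) and lies opposite HOXB7, which had 284 and 281. HOXA-AS2 had 117 and 125 counts (-0.10), opposite HOXA3 with 325 and 271. HOXD-AS1 had 38 and 52 counts. JHDM1D-AS1 had 43 and 45 counts, beside KDM7A, the current name of JHDM1D, a histone demethylase gene with 200 and 206.

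By function of the sense gene, 14 of the 54 listed antisense RNAs of transcription factor genes were members. Of these 10 were lower and 4 higher, 0 passed 1 or -1, and their median log2FC was -0.36 against -0.11 for all members. The list does not hold every such gene, and ZNF503-AS2 (1.21) was not on it. Counted apart, 9 members had a sense symbol that starts with ZNF, ZSCAN, ZBTB, ZBED or ZEB. Their median was -0.06, with 5 lower, 4 higher and 1 above 1, so the lower median holds for the list only. NR2F1-AS1 had 95 and 135 counts, -0.51 (-0.91 to -0.13), and NR2F1, an orphan nuclear receptor gene, 153 and 232, -0.61 (-0.91 to -0.31), so both genes of this pair were lower. NR2F2-AS1 had -0.37 (-0.93 to 0.17) while NR2F2 had 0.19. ZEB1-AS1, opposite a regulator of the epithelial to mesenchymal transition, had 53 and 51 counts.

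Of 52 listed antisense RNAs that have been studied in cancer, 26 were members, with a median log2FC of -0.13, 17 lower and 9 higher. A2M-AS1 was below -1 and none was above 1. TTN-AS1 had 27 counts in shMBD2 and 46 in shNC (-0.77, -1.52 to -0.06), and TP73-AS1 312 and 393 (-0.34, -0.56 to -0.12). The list of cell cycle and DNA replication had 4 members of 21, among them OIP5-AS1, TMPO-AS1 (83 and 86 counts) and MCM3AP-AS1, with a median of -0.15. Of 24 listed antisense RNAs of immune and NF-kB genes, TRAF3IP2-AS1 was the only member, and the others on the list had fewer than 50 counts. The list is not complete. MAP3K14-AS1 (100 counts in shMBD2 and 117 in shNC, -0.23) and PRKCQ-AS1 (100 and 96, 0.05), named after kinase genes of NF-kB signaling, were members outside it.

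Most antisense RNAs started in CG-rich DNA, as did their sense genes. A promoter window of 300 bases, from 250 before to 50 after the start, was found in RefSeq (GRCh38.p14) for 122 of the 144 members. The letters CG occurred a median of 26.5 times in it, against 14 over 27305 promoters of all RefSeq genes and 27 for 109 sense genes. At least 10 CG were present in 86.9% of the member windows, 91.7% of the sense gene windows and 56.0% of all windows. The median was 26.5 both for the 78 lower and for the 44 higher members with a window, and at least 10 CG were present in 83.3% of the lower and 93.2% of the higher ones. Windows of divergent pairs share bases, so the members and the sense genes are not separate samples of sequence. A count of CG is a description of sequence and shows neither methylation nor MBD2 binding.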

How the data were processed

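RNA of TFK1 cells with shMBD2 or shNC was sequenced, 1 library per condition. The authors deposited whole-number read counts per gene and TPM per gene. Per the labels' processing notes, the tools were fastp, HISAT2 2.1.0, featureCounts and DESeq 1.18.1, with GRCh38.p13. The strand setting is not given in the sources used here. Of 63723 lines, 46 held overflow text and were dropped. Rows that repeated a symbol with the same counts in both libraries were also dropped, which left 56638 entries, here called genes. Only 365 of 51060 genes had the start that GENCODE 29 (GRCh38) gives, so the deposited coordinates follow another build. Distances and overlaps between genes were therefore computed within the deposited coordinates, and exon overlap within GENCODE 29, joined by Ensembl identifier (142 of 144 members). Promoter windows came from RefSeq, GRCh38.p14, matched by current or older symbol.

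Counts were scaled with TMM factors (edgeR 4.0.16, R 4.3.3). Intervals were computed with scipy 1.17.1. Lines at a log2FC of 1 and -1 are a rule of size, not a test. The scripts were tested on simulated counts. Genes were named by rule: MBD2, the 10 highest and 10 lowest log2FC among the 90 members that reached 50 counts in either library, the 5 members with the highest mean TPM, pairs with both genes past 1 or -1, and examples from the gene lists. Other genes were added to the text with their values known, and some genes that the rule names are not reported here. The members and lists were chosen with earlier results of these data known.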

Additional observations from a re-analysis of the deposited data

How the results depend on the processing

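No paired analysis was possible because there is 1 library of shMBD2 and 1 of shNC, and for the same reason no library could be left out. The counts of members past the size lines depended on the count minimum, and total counts, upper quartile factors or log2 of TPM plus 0.1 put SRP14-AS1 past -1, for 6 members in place of 5. With at least 10 counts, 19 of 295 antisense RNAs (6.44%) were above 1 and 34 (11.5%) below -1. Of all genes with at least 10 counts, 5.48% and 5.07% were. These shares are not at matched counts. Of the 295 antisense RNAs 151 had only 10 to 49 counts, whereas 13353 of all 17545 genes had 50 or more. At that minimum 2 sense genes were above 1 and 6 below -1. With at least 200 counts, 0 members were above 1 and 0 below -1, 0 sense genes were above 1 and 2 below -1. With log2 of the deposited TPM plus 1, which compresses low values, 1 member was above 1, 2 were below -1 and 1 sense gene was below -1. The median log2FC of the sense genes, -0.0060, was 0.0029 with the size factors of DESeq2 1.42.0, so its sign is not settled. Other scalings moved all genes by at most 0.017 on the log2 scale. In 144 comparisons of named members with other scalings, pseudocounts or prior counts, every value kept its sign and stayed within the counting interval. The share of same-sign pairs was recomputed without EPB41L4A-AS2, ZNF503-AS2 and PRKG1-AS1 (62.6%), an alternative added after seeing the data. The low counts of most members limit what can be seen: at 50 to 99 counts the median interval was 1.54 wide on the log2 scale.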

Other observations

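Antisense RNAs whose symbol ends in -AS without a digit fell outside the rule. Of 14 such symbols, MKLN1-AS was the only one with 50 or more counts. It had 107 counts in shMBD2 and 95 in shNC, a log2FC of 0.16 (-0.25 to 0.58), while MKLN1, the gene of the E3 ligase subunit muskelin, had 1579 and 1777 and a log2FC of -0.18.

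Among the 5 members that GENCODE 29 annotates as protein-coding (RPA3-AS1, CEBPZ-AS1, MMP24-AS1, FAM83H-AS1 and NCBP2-AS2), the median log2FC was 0.17, and 2 were lower. Among the 88 annotated as antisense the median was -0.12, and among the 19 annotated as processed transcripts it was -0.24.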
